A study of Homo sapiens with 16 samples.

Results

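The chemokine ligand genes CCL3, CCL4 and CCL5 and the chemokine receptor genes CCR1, CCR2, CCR10 and CXCR4 were followed across 4 groups of NCI-H929 cells, a human multiple myeloma line. These 7 genes were taken by symbol from the 57500 genes in the count tables, and CCL3 and its receptor CCR1 were also read as a pair, known from myeloma bone disease. Bulk RNA sequencing gave 16 libraries. The groups of 4 libraries were degrader (the p300 degrader named 27, at 3 nM for 6 h), DMSO (its vehicle), p300 KO (p300 knockout cells) and NTC (the cells set against the knockout, labelled with these letters alone). All cells were of the same line, and the labels put all libraries in batch 1. How the knockout was made, whether it is 1 clone, and whether the replicates were separate cultures is not given in the sources used here, so any p-value here speaks to the spread among these libraries alone, and that spread could be technical.

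Chemokines are small secreted proteins that bind G protein-coupled receptors and steer the movement of cells. Myeloma cells secrete CCL3, also called MIP-1 alpha, and CCL3 acting on CCR1 stimulates the osteoclasts that break down bone in this disease. CCL4 is a close relative of CCL3, CCL5 acts on CCR1 and CCR3 among others, CCR10 receives CCL27 and CCL28 on antibody-secreting cells, CCR2 is the receptor of CCL2, and CXCR4 is the receptor of CXCL12 that holds plasma cells in the bone marrow. The protein p300, encoded by EP300, acetylates histones and coactivates transcription.

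Libraries are named by group and replicate number. Levels are CPM, the count of a gene relative to the size of its library, scaled over all 16 libraries with TMM, which assumes that most genes are unchanged, while every fold change comes from a fit on the 8 libraries of its own comparison. Each library held between 12.6 M and 23.1 M counts in total (M, mega). Genes of the mitochondrial genome held 64.9% of counts in degrader 2 and 47.7% in p300 KO 1 (95% exact intervals for counting error alone, 64.8 to 64.9% and 47.7 to 47.8%), against 5.99 to 23.5% in the other 14 libraries, so results on the chemokine and receptor genes are given with and without that library of its comparison. EP300 itself had 41.1, 34.9, 31.2 and 34.0 CPM in p300 KO libraries 1 to 4, against 92.5, 85.2, 83.8 and 87.6 CPM in NTC libraries 1 to 4. Markers of plasma cells summed to 8426 to 16408 CPM in degrader, 11982 to 15126 CPM in DMSO, 9879 to 11863 CPM in p300 KO and 11636 to 11793 CPM in NTC libraries, and all 12 listed markers had counts. Most of this sum was JCHAIN, with means of 9872 CPM in degrader, 9086 in DMSO, 7954 in p300 KO and 7736 in NTC.

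Several of the genes lie close together. On GRCh38, CCL3 (ENSG00000277632) occupies chr17:36088256-36090169 on the minus strand and CCL4 (ENSG00000275302) chr17:36103590-36105621 on the plus strand, so their start sites point away from each other 13.4 kb apart. CCL5 (ENSG00000271503) lies at chr17:35871491-35880793 on the minus strand, 209 kb from the CCL3 start. CCR1 (ENSG00000163823) lies at chr3:46201709-46208396 on the minus strand and CCR2 (ENSG00000121807) at chr3:46353734-46360928 on the plus strand, with start sites 145 kb apart. CCR10 (ENSG00000184451) lies at chr17:42678889-42683917 and CXCR4 (ENSG00000121966) at chr2:136114349-136118165, both on the minus strand. All 7 are annotated as protein coding, with the same positions in GENCODE 29. At 107 kb from CCL3, CCL3L3 (ENSG00000276085, chr17:36194869-36196758, minus strand, named CCL3L1 in GENCODE 29), is a close copy of CCL3, and CCL4L2 (ENSG00000276070, chr17:36210924-36212878, plus strand) is a copy of CCL4.

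The sequences before the start sites of the pair and of the CCL3 copy show how alike both CCL3 genes are upstream and that CCR1 does not share their layout. They are the 250 bases before the RefSeq start (GRCh38.p14, minus strand, 5′ to 3′), and capitals mark matches to the motifs searched on both strands.
CCL3, chr17:36090144-36090393: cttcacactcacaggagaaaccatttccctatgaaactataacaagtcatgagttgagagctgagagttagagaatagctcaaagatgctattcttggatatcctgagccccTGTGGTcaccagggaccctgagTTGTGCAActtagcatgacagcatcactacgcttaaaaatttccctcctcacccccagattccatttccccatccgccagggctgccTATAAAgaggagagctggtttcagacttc
CCL3L3, chr17:36196759-36197008: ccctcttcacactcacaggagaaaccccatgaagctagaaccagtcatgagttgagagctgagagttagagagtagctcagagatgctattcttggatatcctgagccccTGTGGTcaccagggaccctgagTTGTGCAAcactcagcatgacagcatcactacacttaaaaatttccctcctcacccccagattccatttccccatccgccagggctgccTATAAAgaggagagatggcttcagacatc
CCR1, chr3:46208314-46208563: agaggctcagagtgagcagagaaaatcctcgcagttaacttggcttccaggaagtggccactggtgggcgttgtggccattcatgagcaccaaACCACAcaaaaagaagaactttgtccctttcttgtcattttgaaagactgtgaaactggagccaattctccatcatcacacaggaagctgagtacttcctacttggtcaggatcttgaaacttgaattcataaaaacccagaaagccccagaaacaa
In CCL3 the capitals are a RUNX motif (TGTGGT) beginning 138 bases before the start, a C/EBP motif (TTGCNNAA, here on the minus strand) at 116 bases and a TATA box (TATAAA) at 29 bases. CCL3L3 has the same matches at 140, 118 and 29 bases, and 91.4% of the aligned positions of its window are identical to those of CCL3 (234 of 256, gaps counted as differences). In CCR1 the match is a RUNX motif on the minus strand, at 157 bases. Among 35116 promoters in the same RefSeq table, windows of this length held the RUNX motif in 11%, the C/EBP motif in 9.05% and the TATA box in 10.7%. The AP-1 (TGANTCA, 6.57% of promoters), CRE (TGACGTCA, 1.65%), NF-kB (GGG, 2 bases of any kind, TTTCC, 1.73%), ISRE (GAAA, 2 bases of any kind, GAAA, 3.02%) and ETS-IRF (GGAA, 2 bases of any kind, GAAA, 2.41%) letters were not in these 3 windows. The ISRE and ETS-IRF patterns overlap in their letters. A match of letters is a description of the sequence and not of binding.

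CCL3 was lower with the degrader and lower in the p300 KO. It had 52.3, 28.9, 57.9 and 54.1 CPM in degrader libraries 1 to 4, against 85.1, 94.5, 86.6 and 88.3 CPM in DMSO libraries 1 to 4. Every degrader library lay below every DMSO library, and degrader 2, the library rich in mitochondrial counts, was the lowest. The log2 fold change was −0.86 ± 0.19 (SE, n = 4 each; edgeR quasi-likelihood test, p adjusted after Benjamini-Hochberg = 0.0401), a fall to 0.550 of the DMSO level. Without degrader 2 it was −0.70 ± 0.08 (edgeR adjusted p = 2.82e-05), and the mean level was 54.7 ± 2.83 CPM (SD, n = 3) in degrader against 88.7 ± 4.14 CPM (SD, n = 4) in DMSO. CCL3 was called with and without degrader 2. With degrader 2 kept, leaving out any 1 of the other 7 libraries ended the call, at log2 fold changes between −0.93 and −0.83 (edgeR adjusted p from 0.0980 to 0.138).

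In the p300 KO, CCL3 had 21.3, 21.3, 22.2 and 17.7 CPM in libraries 1 to 4, against 40.8, 53.2, 49.5 and 44.9 CPM in NTC libraries 1 to 4. The KO libraries lay close together and all below the NTC libraries, with p300 KO 1 within the range of the others. The log2 fold change was −1.14 ± 0.11 (SE, n = 4 each; edgeR quasi-likelihood test, p adjusted after Benjamini-Hochberg = 3.59e-04), a fall to 0.454 of the NTC level, and it was −1.20 ± 0.08 without p300 KO 1. The call held in all 8 fits that left out 1 library. Both experiments differ in their starting level: DMSO cells held 88.7 ± 4.14 CPM and NTC cells 47.1 ± 5.41 CPM (SD, n = 4 each), so the degrader libraries, at 48.3 ± 13.1 CPM, overlapped with NTC, while the KO libraries, at 20.6 ± 2.00 CPM, lay below all other libraries.

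**Figure D1:**
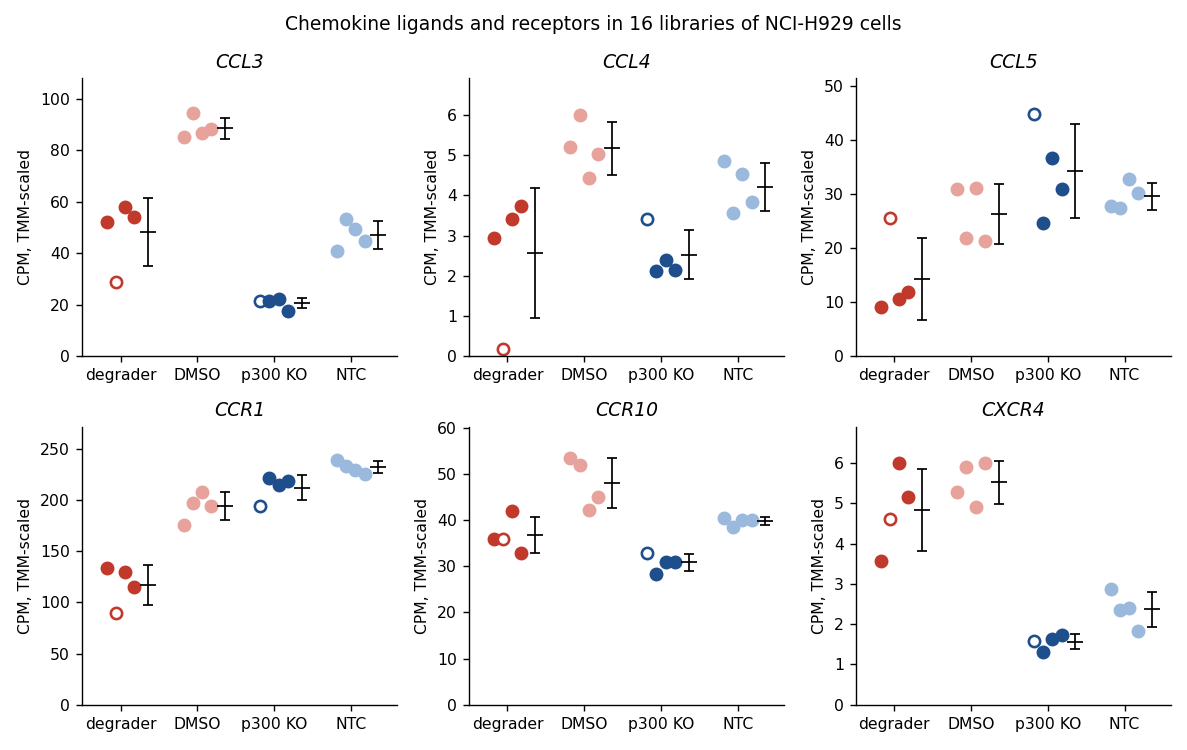
Levels of 6 chemokine genes (y axes, CPM scaled with TMM) in each of 16 libraries, 4 per group along the x axis; points are libraries in replicate order, open points are degrader 2 and p300 KO 1, and black bars give the group mean ± SD. CCL3 libraries sit at 28.9 to 57.9 CPM in degrader and 85.1 to 94.5 CPM in DMSO, and at 17.7 to 22.2 CPM in p300 KO and 40.8 to 53.2 CPM in NTC.

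CCL3L3, the CCL3 copy, was low but moved in the same direction. It had 1.01, 0.56, 1.68 and 1.53 CPM in degrader libraries 1 to 4 (3 to 34 counts), against 4.86, 4.83, 5.98 and 3.19 CPM in DMSO libraries 1 to 4 (59 to 100 counts). The degrader and DMSO libraries did not overlap, and the log2 fold change was −1.88 ± 0.32 (SE; edgeR adjusted p = 0.0140). With 3 counts in degrader 2, CCL3L3 passed the filter on low counts only with its DMSO libraries, which favours the call of a fall. Left out in turn, DMSO 1, degrader 1 and degrader 4 each ended this call (edgeR adjusted p up to 0.0688). In the KO the log2 fold change was −0.96 ± 0.26 (SE; edgeR adjusted p = 0.0312), with 0.76 to 1.35 CPM in p300 KO and 1.5 to 2.31 CPM in NTC libraries, and the call held in 2 of the 8 fits without 1 library, those without p300 KO 1 and without NTC 1. CCL3L3 made up 2.34 ± 0.512% of the counts of both genes in degrader and 5.05 ± 1.24% in DMSO, and 4.47 ± 1.11% in p300 KO and 3.87 ± 0.474% in NTC (SD, n = 4 each). The annotated transcripts of CCL3 share 4.93% of their 50-base stretches and none of their 100-base stretches with CCL3L3. How reads that match several places were counted is not stated, so the split between the copies is uncertain. CCL3 also shares 74.6% of its exon bases with the antisense gene CCL3-AS1, which had 2 counts over all libraries. Whether counting used strand is not stated either.

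CCL4, the neighbour of CCL3 that faces away from it, was lower in the KO and also lower with the degrader once the mitochondria-rich library was left out. It had 2.94, 0.19, 3.40 and 3.73 CPM in degrader libraries 1 to 4, against 5.22, 6.00, 4.43 and 5.03 CPM in DMSO libraries 1 to 4. The groups did not overlap, but the value of degrader 2 is 1 count, less than the 3 counts that a count of 0 allows. CCL4 had a log2 fold change of −0.90 ± 0.46 (SE; edgeR adjusted p = 0.308), and −0.63 ± 0.17 without degrader 2 (edgeR adjusted p = 0.00846). In the KO, CCL4 had 3.41, 2.12, 2.39 and 2.15 CPM in libraries 1 to 4, against 4.87, 3.57, 4.52 and 3.84 CPM in NTC libraries 1 to 4. Here p300 KO 1 was the highest KO library and lay just under NTC 2. In the fit this gave a log2 fold change of −0.71 ± 0.21 (SE; edgeR adjusted p = 0.0438), and −0.91 ± 0.16 without p300 KO 1. With p300 KO 1 kept and 1 other library left out, the fall in the KO lost its call in all 7 fits (edgeR adjusted p from 0.0700 to 0.127). Adding the counts of the copy CCL4L2 also ended it (log2 fold change −0.59, edgeR adjusted p = 0.0959). CCL4L2 had 0 to 14 counts in degrader and 13 to 19 counts in DMSO libraries.

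CCL5 was lower with the degrader when its mitochondria-rich library was left out, and was not called in the KO. It had 9.13, 25.5, 10.6 and 11.9 CPM in degrader libraries 1 to 4, against 30.9, 21.8, 31.2 and 21.2 CPM in DMSO libraries 1 to 4. The other 3 degrader libraries lay below all DMSO libraries, while degrader 2 lay among the DMSO libraries. With all libraries the log2 fold change was −0.90 ± 0.33 (SE; edgeR adjusted p = 0.163), and without degrader 2 it was −1.32 ± 0.15 (edgeR adjusted p = 2.46e-05), a fall to 0.400 of the DMSO level. In the KO, CCL5 had 44.9, 24.6, 36.7 and 30.9 CPM in libraries 1 to 4, against 27.9, 27.3, 32.8 and 30.1 CPM in NTC libraries 1 to 4. These groups overlapped, p300 KO 1 was the highest library, and the log2 fold change of 0.27 ± 0.19 (SE; edgeR adjusted p = 0.326) became 0.07 ± 0.08 without it (edgeR adjusted p = 0.518; 95% interval −0.09 to 0.22).

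Among the receptors, CCR1 was lower with the degrader and was not called in the KO. It had 134, 90.1, 130.0 and 115 CPM in degrader libraries 1 to 4, against 175, 198, 208 and 195 CPM in DMSO libraries 1 to 4. The groups did not overlap, and degrader 2 was again the lowest library. The log2 fold change was −0.71 ± 0.14 (SE, n = 4 each; edgeR quasi-likelihood test, p adjusted after Benjamini-Hochberg = 0.0272), a fall to 0.609 of the DMSO level, and without degrader 2 it was −0.63 ± 0.09 (edgeR adjusted p = 1.56e-04). As for CCL3, the fits that kept degrader 2 and left out 1 other library had edgeR adjusted p from 0.0778 to 0.107, with log2 fold changes from −0.76 to −0.67.

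In the KO, CCR1 had 195, 222, 215 and 218 CPM in libraries 1 to 4, against 240, 233, 230 and 226 CPM in NTC libraries 1 to 4. The KO libraries were all below the NTC libraries, but by little. Its log2 fold change in the KO was −0.08 ± 0.06 (SE; edgeR adjusted p = 0.384; 95% interval −0.19 to 0.04), and it was −0.08 ± 0.05 without p300 KO 1 (edgeR adjusted p = 0.206). CCR1 lies within the span of CCR3 on the other strand, and the annotated exons of both share no bases.

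CCR10 was lower in the KO and lower with the degrader without its mitochondria-rich library. It had 35.9, 35.9, 42.0 and 32.8 CPM in degrader libraries 1 to 4, against 53.4, 51.8, 42.1 and 45.0 CPM in DMSO libraries 1 to 4. The highest degrader library and the lowest DMSO library nearly touched. For CCR10 the log2 fold change was −0.38 ± 0.12 (SE; edgeR adjusted p = 0.126), and −0.39 ± 0.11 without degrader 2 (edgeR adjusted p = 0.0124). In the KO, CCR10 had 32.9, 28.2, 31.0 and 31.0 CPM in libraries 1 to 4, against 40.4, 38.6, 40.1 and 40.1 CPM in NTC libraries 1 to 4. These groups were apart, the log2 fold change was −0.31 ± 0.08 (SE; edgeR adjusted p = 0.0315), and it was −0.39 ± 0.06 without p300 KO 1. With p300 KO 1 kept and 1 other library left out, the call was lost in all 7 fits (edgeR adjusted p from 0.0717 to 0.0868). CCR10 shares 14.5% of its exon bases with CNTNAP1 and 16.8% with ENSG00000267042, both on the other strand, so part of its counts is uncertain.

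CXCR4 was scarce in all groups. It had 3.58, 4.63, 6.02 and 5.15 CPM in degrader libraries 1 to 4, against 5.28, 5.90, 4.90 and 6.00 CPM in DMSO libraries 1 to 4. These overlapped, with a log2 fold change of −0.17 ± 0.19 (SE; edgeR adjusted p = 0.643; 95% interval −0.54 to 0.19), and −0.17 ± 0.17 without degrader 2 (edgeR adjusted p = 0.450). In the KO it had 1.59, 1.32, 1.63 and 1.74 CPM in libraries 1 to 4, against 2.88, 2.35, 2.41 and 1.83 CPM in NTC libraries 1 to 4. The KO libraries, with 20 to 42 counts each, all lay below the NTC libraries, the highest KO library close to NTC 4. The log2 fold change was −0.54 ± 0.19 (SE; edgeR adjusted p = 0.0808), and −0.58 ± 0.20 without p300 KO 1 (edgeR adjusted p = 0.0154). CCR2 had 0 counts in all degrader, DMSO and p300 KO libraries and 0, 1, 4 and 4 counts in NTC libraries 1 to 4. The limit that a count of 0 allows is 0.130 to 0.238 CPM depending on the library, so CCR2 was not tested. In bulk RNA, fewer cells that express a gene and less RNA per cell cannot be told apart.

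Of the 7 genes, 6 passed the filter on low counts and were tested. With the degrader, 2 of them were called lower (CCR1 and CCL3) and none higher. Of all 15872 genes tested, 4.76% were called, 3.12% lower and 1.64% higher. Counted by libraries, 4 of the 6 lay below DMSO without overlap, as did 9.68% of all genes. Without degrader 2, 5 were called lower, all but CXCR4, and the same 5 lay below DMSO without overlap; of all genes 38.5% were called, 20.3% lower and 18.2% higher, and 22.3% lay below DMSO without overlap. In the KO, 3 were called lower (CCL3, CCR10 and CCL4) and none higher. Of all 17350 genes tested, 17.0% were called, 10.7% lower and 6.23% higher. Here 5 of the 6, all but CCL5, lay below NTC without overlap, as did 18.5% of all genes. Without p300 KO 1, 4 were called lower, with CXCR4 added, and 5 lay below NTC without overlap; of all genes 40.9% were called, 21.8% lower and 19.1% higher, and 23.1% lay below NTC without overlap. The median log2 fold change of the 6 genes was −0.79 with the degrader and −0.43 in the KO, beside 0.05 and 0.02 over all genes tested.

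**Figure D2:**
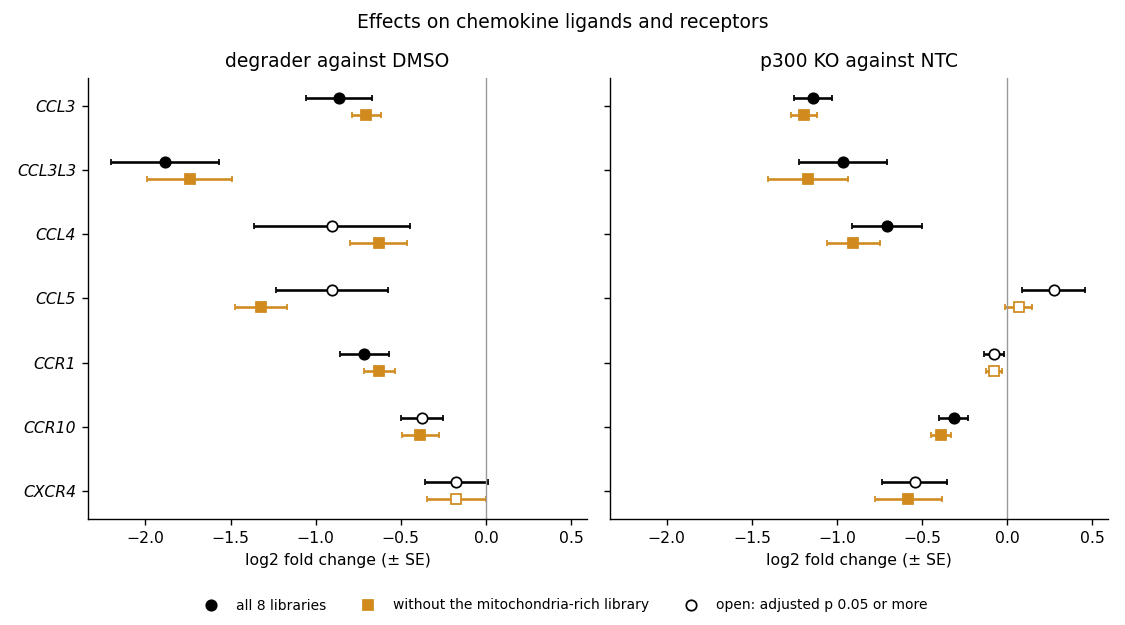
Log2 fold changes (x axis, ± SE) of 6 chemokine genes and the copy CCL3L3 for the degrader against DMSO (left) and the p300 KO against NTC (right); black circles use all 8 libraries, orange squares leave out degrader 2 or p300 KO 1, and open symbols have an adjusted p of 0.05 or more. CCL3 lies left of 0 in both panels, at −0.86 and −1.14, whereas CCR1 lies at −0.71 with the degrader and −0.08 in the KO.

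The difference between both effects was tested for each gene in 1 fit on all 16 libraries, as the KO effect less the degrader effect. Of the 6 genes CCR1 was called, with a difference of 0.60 ± 0.16 (SE; edgeR adjusted p = 0.0362), where 6.58% of 18068 genes were called, 2.82% higher and 3.76% lower. Without degrader 2 and p300 KO 1 the CCR1 difference was 0.52 ± 0.10 (edgeR adjusted p = 3.78e-04). In the 16 fits that left out 1 library it ran from 0.48 to 0.67 and was called in 5, those without DMSO 1, degrader 1, 2 or 3, or p300 KO 1. For CCL3 the difference was −0.33 ± 0.23 (edgeR adjusted p = 0.463), and without both libraries −0.52 ± 0.13 (edgeR adjusted p = 0.00321), a larger fall in the KO. Leaving out degrader 2 alone gave −0.51 and a call. For CCL5 it was 1.15 ± 0.37 (edgeR adjusted p = 0.0808), and 1.36 ± 0.19 without both libraries (edgeR adjusted p = 8.22e-06). CCL4, CCR10 and CXCR4 had differences of 0.12, 0.02 and −0.41 (edgeR adjusted p = 0.927, 0.967 and 0.396), and their 95% intervals were −0.83 to 1.08, −0.26 to 0.29 and −0.91 to 0.09. Without both libraries, 32.0% of all genes were called, 15.3% higher and 16.7% lower.

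The pair of CCL3 and CCR1 was followed library by library. With the degrader the ligand and the receptor were both lower than in DMSO, whereas in the KO the ligand was lower than in NTC and the receptor had nearly the NTC level. No correlation is given, since the libraries fall into separate groups.

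**Figure D3:**
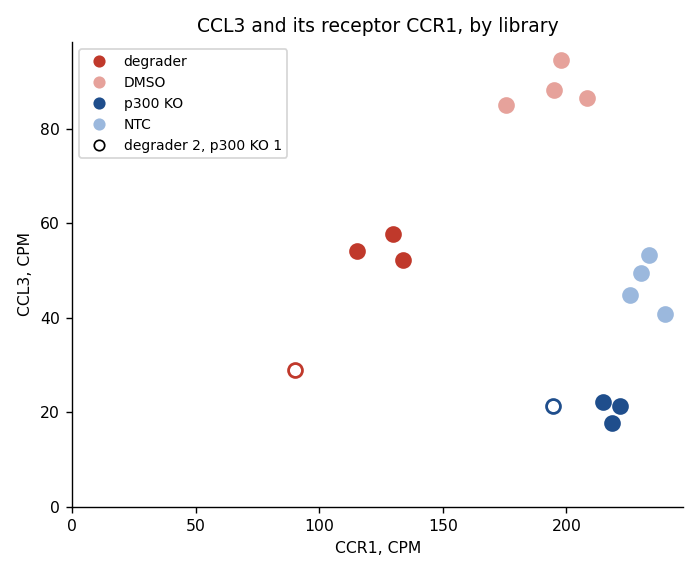
CCL3 (y axis, CPM) against CCR1 (x axis, CPM) in 16 libraries coloured by group, with degrader 2 and p300 KO 1 as open points. Degrader libraries lie at lower values of both genes than DMSO libraries, while p300 KO libraries lie below NTC libraries at 195 to 222 CPM of CCR1, against 226 to 240 CPM in NTC.

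The order of the groups differed from gene to gene. CCL3 was highest in DMSO, followed by degrader and NTC, which overlapped, and then by p300 KO. CCR1 was highest in NTC, followed by p300 KO and DMSO, which overlapped, and then by degrader. CXCR4 was higher in DMSO and degrader, which overlapped, than in NTC, and lowest in p300 KO. CCR10 was highest in DMSO, with NTC and degrader, then degrader and p300 KO, overlapping below it. For CCL4 and CCL5 all neighbours in the order overlapped. DMSO and NTC belong to different experiments, and no test was run between them.

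Set beside the rest of the family per kilobase of transcript, CCR1 and CCL3 stood at the top. Of the 46 ligand genes found in the files 12 had no counts in any library and 37 had under 100 counts in total, and of the 23 receptor genes 2 had none and 17 had under 100. CCR1 had the highest level of all, at 43.0 CPM per kilobase in degrader, 71.0 in DMSO, 77.8 in p300 KO and 85.0 in NTC. CCL3 led the ligands at 32.3 CPM per kilobase in degrader, 59.3 in DMSO and 31.5 in NTC, but at 13.8 in p300 KO it was below CCL5, at 22.7. Next among the receptors came CCR10 (11.8 to 18.4 CPM per kilobase over the group means) and CXCR3, a receptor known from activated T cells (7.01 to 11.5). The genes of the ligands of CXCR4 and CCR10 had few counts: CXCL12 had 14 counts over all 16 libraries, CCL28 had 3 and CCL27 had none. These 3 ligands were chosen after their values were seen.

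**Figure D4:**
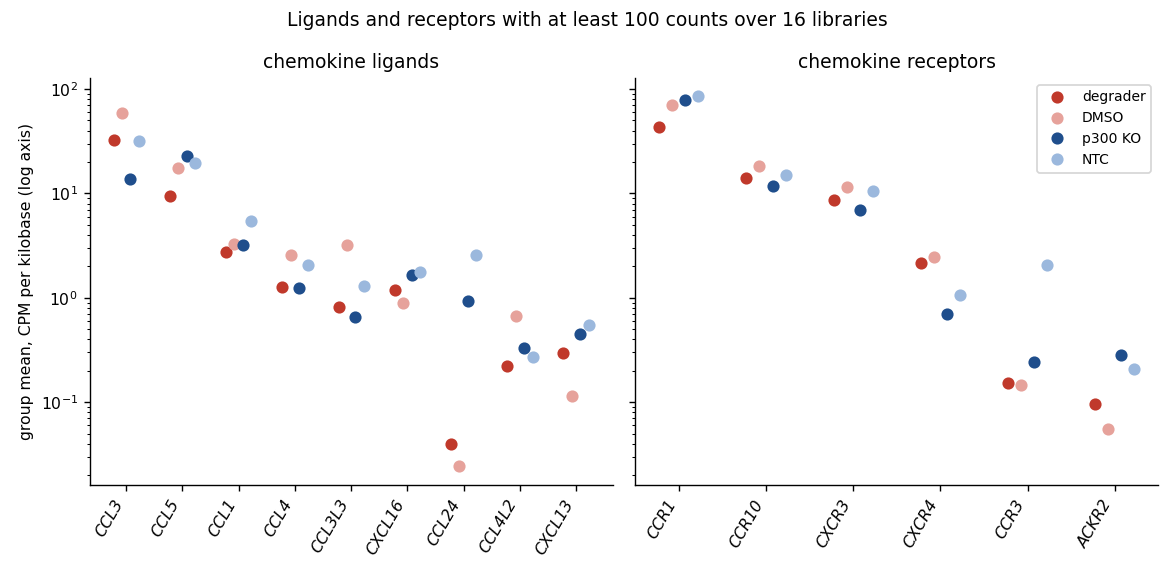
Group means (y axis, CPM per kilobase, log axis) of the 9 ligand genes and 6 receptor genes with at least 100 counts over 16 libraries. CCR1 is the highest receptor in each group, between 43.0 and 85.0 CPM per kilobase, and CCL3 is the highest ligand in each group except p300 KO.

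Across the ligand list, 7 genes were tested with the degrader, of which 2 fell (CCL3 and CCL3L3) and none rose. The median log2 fold change was −0.90, while 3.12% of all genes tested fell. CCL3L3, CCL4 and CCL4L2 passed the filter on low counts only with their DMSO libraries, which favours falls in this list. In the KO, 9 were tested, and 5 fell and none rose, with a median of −0.70, where 10.7% of all genes fell. Beside CCL3, CCL3L3 and CCL4 these were CCL24, an attractant of eosinophils (−1.34 ± 0.35, edgeR adjusted p = 0.0284), and CCL1, a ligand of CCR8 (−0.70 ± 0.20, edgeR adjusted p = 0.0432). CCL24 had 0.24 to 0.74 CPM in p300 KO and 1.05 to 2.23 CPM in NTC libraries, and CCL1 had 1.40 to 2.47 CPM in p300 KO and 2.47 to 3.57 CPM in NTC libraries, so both are genes of few counts. With 3 to 18 counts in p300 KO libraries, CCL24 passed the filter on low counts through its NTC libraries, which favours the call of a fall. CCL24 lost its call without NTC 2 or 3 or without p300 KO 2, 3 or 4 (edgeR adjusted p up to 0.0891), and CCL1 without NTC 1, 2 or 3 or without p300 KO 2 or 4 (up to 0.120). Without degrader 2, 4 of 7 ligands fell and none rose, where 20.3% of all genes fell. Without p300 KO 1, 5 of 10 fell and none rose, where 21.8% of all genes fell. With the counts of the copies CCL3L3 and CCL4L2 added to CCL3 and CCL4, 1 ligand fell with the degrader and 3 in the KO. Fits that kept the mitochondria-rich library and left out 1 other had 0 to 1 ligands lower with the degrader and 1 to 3 in the KO.

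Across the receptor list, CCR1 was the 1 of 4 tested genes that fell with the degrader, and 3 of 6 fell in the KO, beside the same 3.12% and 10.7% of all genes. The largest change was that of CCR3, the receptor of eotaxins and of CCL5, whose gene spans CCR1. CCR3 had 1.19, 0.84, 0.92 and 0.50 CPM in p300 KO libraries 1 to 4, against 5.76, 7.87, 8.05 and 7.46 CPM in NTC libraries 1 to 4. The KO libraries were all far below the NTC libraries, with a log2 fold change of −3.08 ± 0.24 (SE; edgeR adjusted p = 7.89e-05). In the first experiment CCR3 was scarce, with 0.27 to 0.89 CPM in degrader and 0.36 to 0.70 CPM in DMSO libraries. CCR1, which lies inside CCR3, had a log2 fold change of −0.08 in the same KO libraries. CXCR3 fell as well, with a log2 fold change of −0.55 ± 0.09 (SE; edgeR adjusted p = 0.00439), and the third was CCR10.

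The genes that relay chemokine receptor signals are given as a list, whose median lay close to that of all genes. Of 40 tested with the degrader, 3 fell and 1 rose, and the median log2 fold change was 0.14. Of all genes tested, 3.12% fell and 1.64% rose. RGS1, which shuts off G protein signals downstream of chemokine receptors, had 0.48, 1.85, 0.25 and 0.58 CPM in degrader libraries 1 to 4, against 7.01, 5.90, 10.3 and 7.36 CPM in DMSO libraries 1 to 4. All degrader libraries were far below all DMSO libraries, with 5 to 11 counts against 116 to 172 counts. The log2 fold change was −3.59 ± 0.49 (SE; edgeR adjusted p = 0.00545). RGS1 passed the filter on low counts through its DMSO libraries, which favours the call of a fall. At so few counts the size of this fall is uncertain. PTK2B, the calcium-responsive kinase Pyk2, had 120, 165, 108 and 99.8 CPM in degrader libraries 1 to 4, against 264, 243, 254 and 233 CPM in DMSO libraries 1 to 4. The groups were apart, with a log2 fold change of −0.996 ± 0.178 (SE; edgeR adjusted p = 0.0181). ADCY7, an adenylyl cyclase, fell (−0.80 ± 0.13) and the adaptor BCAR1 rose (0.87 ± 0.14). The RGS1 call held in all 8 fits without 1 library. PTK2B lost its call in the 7 that keep degrader 2 (edgeR adjusted p up to 0.0682), ADCY7 without DMSO 1 or 4 or degrader 3 or 4 (up to 0.0609), and BCAR1 without degrader 1, 3 or 4 (up to 0.0589).

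In the KO, 43 signalling genes were tested, of which 2 fell and 3 rose, with a median log2 fold change of 0.00. Of all genes tested, 10.7% fell and 6.23% rose. ELMO1, which with DOCK2 activates Rac in migrating cells, fell (−0.35 ± 0.07), and so did VAV3, a guanine nucleotide exchange factor (−0.52 ± 0.12). The adaptor CRK (0.56 ± 0.13) and the phospholipase gene PLCB3 (0.58 ± 0.15) rose, and so did CRKL, a relative of CRK. VAV3 lost its call without NTC 2 or 4 (edgeR adjusted p up to 0.0577), and CRK and PLCB3 lost theirs without any 1 NTC library (up to 0.0649 and 0.0808). RGS1 had 3.41, 3.68, 3.78 and 3.8 CPM in p300 KO libraries 1 to 4, against 4.91, 7.26, 5.34 and 3.81 CPM in NTC libraries 1 to 4. Its log2 fold change there was −0.48 ± 0.19 (SE; edgeR adjusted p = 0.102), and −0.49 ± 0.15 without p300 KO 1 (edgeR adjusted p = 0.00771). Without degrader 2, 5 of 40 signalling genes fell and 12 rose, where 20.3% of all genes fell and 18.2% rose. Without p300 KO 1, 7 of 43 fell and 13 rose, where 21.8% of all genes fell and 19.1% rose.

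The list of genes tied to myeloma bone disease was read with CCL3, CCL4, CCR1 and CXCR4 in it. With the degrader 16 genes were tested, of which 4 fell and 1 rose, with a median log2 fold change of −0.31. Of all genes tested, 3.12% fell and 1.64% rose. Beside CCL3 and CCR1, JAG2, a Notch ligand, fell (−0.84 ± 0.12, edgeR adjusted p = 0.00624), and so did VEGFA, the vascular growth factor (−0.73 ± 0.15, edgeR adjusted p = 0.0287). BTK, a kinase of B cells and osteoclasts, rose (0.68 ± 0.15, edgeR adjusted p = 0.0391). BTK lost its call in the 7 fits that keep degrader 2 (edgeR adjusted p up to 0.129), and VEGFA in 6 of these, all but that without DMSO 3 (up to 0.123). In the KO 18 were tested, of which 5 fell and 1 rose, with a median of −0.33, where 10.7% of all genes fell and 6.23% rose. The largest falls beside CCL3 were those of TNFSF13, which encodes the plasma cell survival factor APRIL (−0.87 ± 0.20), and JAG1, another Notch ligand (−0.85 ± 0.14). ANXA2, an annexin, fell by less (−0.45 ± 0.09), CCL4 was the fifth, and CSF2, which encodes GM-CSF, rose. TNFSF13 lost its call without NTC 2, 3 or 4 (edgeR adjusted p up to 0.0583). Without degrader 2, 6 of 17 fell and 4 rose, where 20.3% of all genes fell and 18.2% rose. Without p300 KO 1, 12 of 21 fell and 3 rose, where 21.8% of all genes fell and 19.1% rose.

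**Figure D5:**
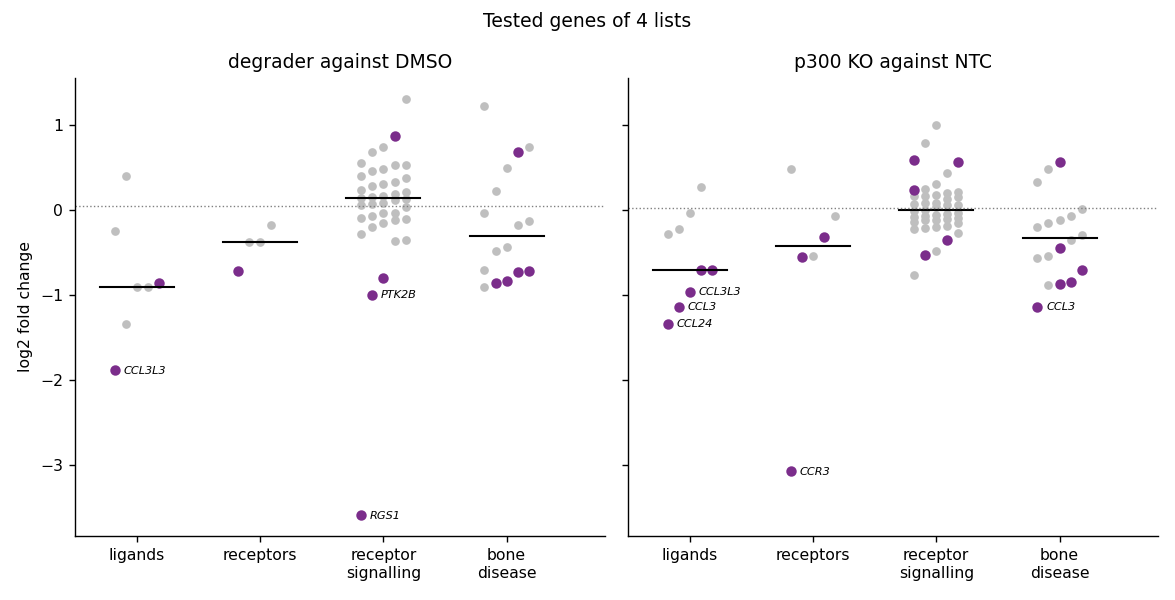
Log2 fold changes (y axis) of the tested genes of 4 lists for the degrader against DMSO (left) and the p300 KO against NTC (right); purple points have an adjusted p under 0.05, black bars are list medians and the dotted line is the median of all genes tested. RGS1, at −3.59 with 5 to 11 counts in degrader libraries, is the lowest point with the degrader, and CCR3, at −3.08, is the lowest in the KO.

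Markers of other cell types were counted beside these levels, since CCL3, CCL4, CCL5 and CXCR3 are also known from T cells, NK cells and monocytes. The 12 T cell markers summed to 150 to 248 CPM in degrader, 222 to 246 CPM in DMSO, 524 to 639 CPM in p300 KO and 617 to 651 CPM in NTC libraries, mostly from CD28 and TRBC2. CD8B had no counts in any library, and CD3D and CD3G stayed at or under 0.28 CPM. CD3E was present, at 11.1 to 24.8 CPM in degrader, 38.6 to 43.6 CPM in DMSO, 21.2 to 24.5 CPM in p300 KO and 22.3 to 25.1 CPM in NTC libraries, and it fell with the degrader (−0.98 ± 0.21, edgeR adjusted p = 0.0349). The 12 NK cell markers summed to 68.3 to 72.7 CPM in degrader, 61.7 to 68.5 CPM in DMSO, 187 to 221 CPM in p300 KO and 198 to 217 CPM in NTC libraries. Most of this was NCAM1 and, in p300 KO and NTC, GZMB. The 12 monocyte and macrophage markers summed to 2.99 to 5.00 CPM in degrader, 3.46 to 5.10 CPM in DMSO, 7.85 to 9.60 CPM in p300 KO and 10.7 to 14.2 CPM in NTC libraries, and CD14 was at or under 0.25 CPM. Most of this sum was CD68 and, in p300 KO and NTC, CSF1R. CSF1R had 0.39 to 0.74 CPM in degrader, 0.56 to 1.14 CPM in DMSO, 3.74 to 4.13 CPM in p300 KO and 6.04 to 9.37 CPM in NTC libraries, and it fell in the KO (−0.86 ± 0.16, edgeR adjusted p = 0.00662). The 12 markers of earlier B cells summed to 17.3 to 57.7 CPM in degrader, 20.3 to 23.7 CPM in DMSO, 21.7 to 33.1 CPM in p300 KO and 35.5 to 38.7 CPM in NTC libraries. With the degrader CD3E was the 1 called of 5 tested T cell markers, while none of the 4 NK cell, 2 monocyte and macrophage and 10 earlier B cell markers tested was called. Among 12 plasma cell markers, IRF4 and POU2AF1 fell and FCRL5 rose. Of all genes tested there, 3.12% fell and 1.64% rose. CD3E and POU2AF1 were each called in 1 of the 8 fits without 1 library. Without degrader 2, 3 of 12 plasma cell and 2 of 10 earlier B cell markers fell, and 4 and 2 rose. There 1 of 5 T cell and 1 of 4 NK cell markers fell and none rose, beside 20.3% and 18.2% of all genes. In the KO 1 of 5 T cell markers (TRAC, −1.13) and 1 of 6 NK cell markers (NKG7, −0.66) fell. So did 1 of 3 monocyte and macrophage markers (CSF1R) and 4 of 11 earlier B cell markers (PAX5, MS4A1, BCL6 and CD22). CD22, at 0.28 to 0.40 CPM in p300 KO libraries, passed the filter on low counts through its NTC libraries, which favours the call of a fall. Of 12 plasma cell markers 6 fell, and no marker rose, where 10.7% of all genes fell and 6.23% rose. In the fits without 1 library, CD22 was called in 1 of 8, NKG7 in 2 and BCL6 in 3. Without p300 KO 1, 9 of 11 earlier B cell, 8 of 12 plasma cell and 4 of 7 NK cell markers fell. So did 1 of 5 T cell and 1 of 3 monocyte and macrophage markers, while 1 plasma cell and 1 T cell marker rose. Among those that fell, CD22 and the NK cell marker KLRC1 (0.08 to 0.28 CPM over all p300 KO libraries) passed the filter through NTC libraries. Of all genes 21.8% fell and 19.1% rose there. The part of these markers in the chemokine results was not tested.

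For each of the 6 measured genes, the nearest profiles over the 14 libraries without degrader 2 and p300 KO 1 were found by the root mean square distance between log2(CPM + 1) values centred on each gene's mean. CCL3 was nearest to CCDC78 (0.194), CPNE7 (0.280) and PLAAT2 (0.286), where the median distance to all 9180 candidates was 0.766. Over all 16 libraries the distances were 0.605 for CCDC78, 0.286 for CPNE7 and 0.382 for PLAAT2. CPNE7 averaged 39.6 CPM in degrader, 75.3 CPM in DMSO, 22.1 CPM in p300 KO and 32.1 CPM in NTC, the same order as CCL3. CCR1 was nearest to CNN2 (0.0914) and TPM4 (0.0934), against a median of 0.447. CNN2 averaged 259.8 CPM in degrader, 424 CPM in DMSO, 391 CPM in p300 KO and 496 CPM in NTC. CXCR4 was nearest to CD48 (0.162), CCL5 to SETBP1 (0.175), CCR10 to CLN6 (0.107) and CCL4 to the antisense gene VPS9D1-AS1 (0.132). Over all 16 libraries these were 0.396 for CD48, 0.281 for SETBP1, 0.183 for CLN6 and 0.649 for VPS9D1-AS1, so each was farther with degrader 2 and p300 KO 1 kept. These distances describe likeness of levels over libraries that fall into the same 4 groups.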

How the data were processed

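The authors deposited 1 table of whole-number counts per gene for each of 16 libraries, with gene positions. The submitters' processing notes name GRCh38, the aligner STAR (2.5.2b), the trimmer Trimmomatic (0.36), featureCounts, Subread (1.5.2) and DESeq2 (1.16.1). The use of strand, the handling of multi-mapping reads and the annotation release were not stated there. Symbols came from a table of gene identifiers, and 96.3% of the identifiers found in GENCODE 29 had the same position. Total counts ran from 12.6 M to 23.1 M, and a count of 0 allows up to 3 counts (0.130 to 0.238 CPM). These limits and the exact intervals of the mitochondrial shares cover counting error only. No 2 libraries were identical.

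Counts were tested with edgeR 4.0.16 in R 4.3.3 (filterByExpr, TMM, quasi-likelihood test, Benjamini-Hochberg over all genes tested, calls at adjusted p under 0.05), each comparison on its own 8 libraries without a replicate block, and the difference between the effects on all 16. The SE is the log2 fold change divided by the square root of F. The procedure was tested on simulated data with 200 changed genes. Apart from these genes, the simulated libraries shared the same mean profile and spread setting. None was rich in mitochondrial counts, so the simulation does not cover such libraries. Alternatives were DESeq2 size factors, total counts, mitochondrial counts removed, no filter, DESeq2 1.42.0, limma-voom (limma 3.58.1), a replicate block, 1 fit on all 16 libraries, summed copies and leaving out each library. Sequences are RefSeq's; promoters of CCL4, CCL5 and CCR10 were not used here.

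The members and lists were chosen with earlier results of these data known. Named genes are the 7 members, the copies CCL3L3 and CCL4L2, EP300, up to 4 called genes per list and comparison with the smallest p, and up to 3 nearest profiles per member with an average log2 CPM of at least 1, among genes with at least 3. CXCL12, CCL27, CCL28, CRKL, CSF2, CXCR3 and CCR3 outside the KO comparison, and single cell markers were named after their values were seen. Lists are described by counts and medians, with no set test. Some items are not reported here.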

Additional observations from a re-analysis of the deposited data

Results flagged for a closer look

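CCL5 in degrader 2 stood apart from its group: at 25.5 CPM it was the highest of 4 libraries, and its gap to the next took 0.832 of the range of the group. CCR10 in NTC 2, at 38.6 CPM, was the lowest of its group, with a gap of 0.844 of the range. Chance gives such a gap in about 1 in 20 groups, so some are expected when several genes are looked at in 4 groups each.

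The effect of the p300 KO against NTC differed from that of the degrader against DMSO in 10 genes of the family and its lists, each by edgeR's quasi-likelihood test of the difference itself at an adjusted p under 0.05. On the log2 scale, KO effect less degrader effect, these differences were 0.60 for CCR1, −3.08 for CCR3, 3.13 for RGS1, 0.74 for PTK2B, −0.75 for BCAR1, 0.83 for ADCY7, −0.77 for GRK5, 0.64 for JAG2, −1.61 for JAG1 and −0.84 for BTK. In this test 9 ligand, 6 receptor, 43 signalling and 19 bone disease genes were tested, some of them in more than 1 list. Of all 18068 genes tested, 6.58% were called, 2.82% higher and 3.76% lower. GRK5, a kinase of G protein-coupled receptors, lies outside the rule for named genes and was added after its values were seen. CCR3 had 4 to 17 counts in degrader and 6 to 13 counts in DMSO libraries, too few to be tested in that comparison, so its difference rests on the KO comparison and says little about the degrader. JAG1 was scarce there too, with 13 to 48 counts in degrader and 11 to 38 counts in DMSO libraries. RGS1 had 5 to 11 counts in degrader libraries. The differences of CCR3, RGS1, JAG2, JAG1 and BTK were called in all 16 fits without 1 library. The others were called in 5 (CCR1), 13 (PTK2B), 7 (BCAR1), 3 (ADCY7) and 6 (GRK5) of these 16 fits, with edgeR adjusted p up to 0.0886, 0.0556, 0.0712, 0.0772 and 0.0802. With total counts, no filter or the replicate block, the calls of CCR1, PTK2B, BCAR1, ADCY7, GRK5, JAG2 and BTK were lost (for JAG2 and BTK, edgeR adjusted p up to 0.556 and 0.401), and that of JAG1 was lost with total counts (0.0951).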

How the results depend on the processing

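With the degrader, 755 genes were called (260 higher, 495 lower), against 164 with total counts (19 higher, 145 lower), 394 with no filter, 1796 by DESeq2, 24 with the replicate block and 2294 in 1 fit on all libraries; leaving out 1 library gave 197 to 6279. For the KO, 2944 were called (1081 higher, 1863 lower), against 1263 with total counts (61 higher, 1202 lower), 1304 with the replicate block and 1484 in 1 fit on all libraries; leave-outs gave 1542 to 7246. For the difference, 1189 were called, against 319 with total counts, 585 with no filter, 2095 by DESeq2, 306 with the replicate block and 5901 without degrader 2 and p300 KO 1; leave-outs gave 766 to 4612. With total counts the median of all genes moved by −0.14 with the degrader and −0.16 in the KO, and relative to that median CCL3 had −0.81 with the degrader and −1.19 in the KO.

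CCL3 with the degrader lost its call with total counts (−0.90, edgeR adjusted p = 0.426), no filter (−0.81, 0.127) and the replicate block (−0.90, 0.189); leave-outs ran from −0.93 to −0.70. CCR1 did so too (−0.79, edgeR adjusted p = 0.450; −0.67, 0.165; −0.73, 0.185), with leave-outs from −0.76 to −0.63. The CCR1 difference lost its call in the same settings (0.55, edgeR adjusted p = 0.708; 0.59, 0.261; 0.61, 0.158), with leave-outs from 0.48 to 0.67. The CCL3 difference was called without degrader 2 and p300 KO 1 (−0.52), with leave-outs from −0.51 to −0.23. CCL3 in the KO stayed called in all 9 other settings (edgeR adjusted p up to 0.00462), while CCR10 was called in 7 of 9 (up to 0.0811) and CCL4 in 6 of 9 (up to 0.200).

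Uncalled differences near 0 changed sign: for CCR10 with DESeq2 size factors (−0.0090), DESeq2 (−0.014), without both libraries (−0.029) and in leave-outs (−0.030 to 0.10), and for CCL4 with total counts (−0.023), without both libraries (−0.30) and in leave-outs (−0.16 to 0.31). Same-numbered libraries did not deviate together, with correlations from −0.49 to 0.18 for degrader and DMSO. For p300 KO and NTC they ran from −0.21 to 0.04. These deviations include the mitochondria-rich libraries. With DMSO 3, degrader 1, 3 and 4 gave −0.54, −0.49 and −0.40, while degrader 2 gave 0.54. The check therefore cannot tell whether the replicate number pairs the libraries. Summing copies was added after the data were seen. Except where the setting itself leaves fewer libraries or counts, the cause of these changes was not tested. Depth limits CCR2, CCL4L2, CCL24, RGS1 in degrader libraries, and CCL4 in degrader 2.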
